A study of Mus musculus with 8 samples.

Results

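A set of 8 genes was followed through brains of mice with an engineered change in Cstf2, a subunit of the mRNA cleavage stimulation factor, and of wild-type littermates. They were Cnpy1, En2, Pax2, Hes3, Dao, Lhx1os, Cdh15 and Nrk. These are 8 of 25815 genes in the count table, each found by its exact symbol, and all 8 passed the filter on low counts. They were chosen by their own counts, because these were higher in most libraries of the mutant group, so their difference between the groups is described and not tested. The mutant group, D50A, held 5 libraries from mice labelled Cstf2D50A, and the WT group held 3 libraries from wild-type littermates. All mice were untreated, 50 days old and kept on a C57BL/6NCrl background after 4 backcross generations, with later breeding inside the colony. Each library came from 1 animal, with the tissue labelled as total brain and the RNA as poly(A)-selected, and no sex, litter or batch was named. The mutation is a missense change, which need not alter the count of Cstf2, so the table does not check the genotype labels. Libraries were numbered in the order of deposit, and the numbers pair no animals.

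The midbrain-hindbrain boundary is a signalling centre of the embryonic neural tube from which the midbrain and the cerebellum are patterned. Paired-box factors such as Pax2 and homeodomain factors such as En2 act there with Fgf8 and Wnt1, and Hes-family repressors keep the boundary cells undifferentiated. Some of these genes stay active in adult cerebellar neurons, whereas others are silent in most of the adult brain. Dao, Lhx1os, Cdh15 and Nrk are not boundary genes, and were grouped with the others for their levels.

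Libraries D50A 1 and D50A 3 stood apart from the rest of their group. Total counts ran from 13675945 to 24802272 per library in D50A and from 16455364 to 20551906 in WT. In D50A 3 mitochondrial transcripts took 11.9% of the counts, and elsewhere between 4.08% and 5.14%. The label of total brain did not match the defining markers of the cerebellum in D50A 1 and in all 3 WT libraries. Gabra6, a GABA receptor subunit that defines cerebellar granule cells, was at 0 in D50A 1, at 53.2, 108, 108 and 103 CPM (counts per 1000000, after scaling of library sizes) in D50A 2 to 5, and at 0, 0.304 and 0.119 CPM in WT 1 to 3. Some cerebellar markers with expression elsewhere in the brain were lower there than in D50A 2 to 5 but not near 0. Zic1 was at 57.9 CPM in D50A 1, between 143 and 184 CPM in D50A 2 to 5, and between 54.4 and 59.1 CPM in WT. Other listed markers were not lower there. Tiam1 was at 132 CPM in D50A 1, between 35.8 and 141 CPM in D50A 2 to 5, and between 120 and 137 CPM in WT. In bulk RNA, fewer cells of a type and less RNA per cell cannot be told apart. The part of cerebellar tissue in the levels below was not tested, and values without D50A 1 or D50A 3 are given beside them.

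Cnpy1, En2, Pax2 and Hes3, the members tied to the boundary, were all higher in D50A 2, 4 and 5 than in any WT library by several fold. Cnpy1 (ENSMUSG00000044681, chromosome 5, 28200819 to 28245806, minus strand, mm10) encodes a member of the canopy family, known from zebrafish to promote FGF signalling at the boundary. It had 2.10, 55.4, 29.8, 86.5 and 84.0 CPM in D50A 1 to 5, against 1.06, 1.16 and 1.6 CPM in WT 1 to 3. D50A 1 lay just above the WT range and the other 4 D50A libraries far above it. The means were 51.6 ± 36.1 CPM in D50A (SD, n = 5) and 1.28 ± 0.289 CPM in WT (SD, n = 3), a log2 fold change of 5.34 (SE 1.14). Without D50A 1 it was 5.66 and without D50A 3 it was 5.5.

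**Figure D1:**
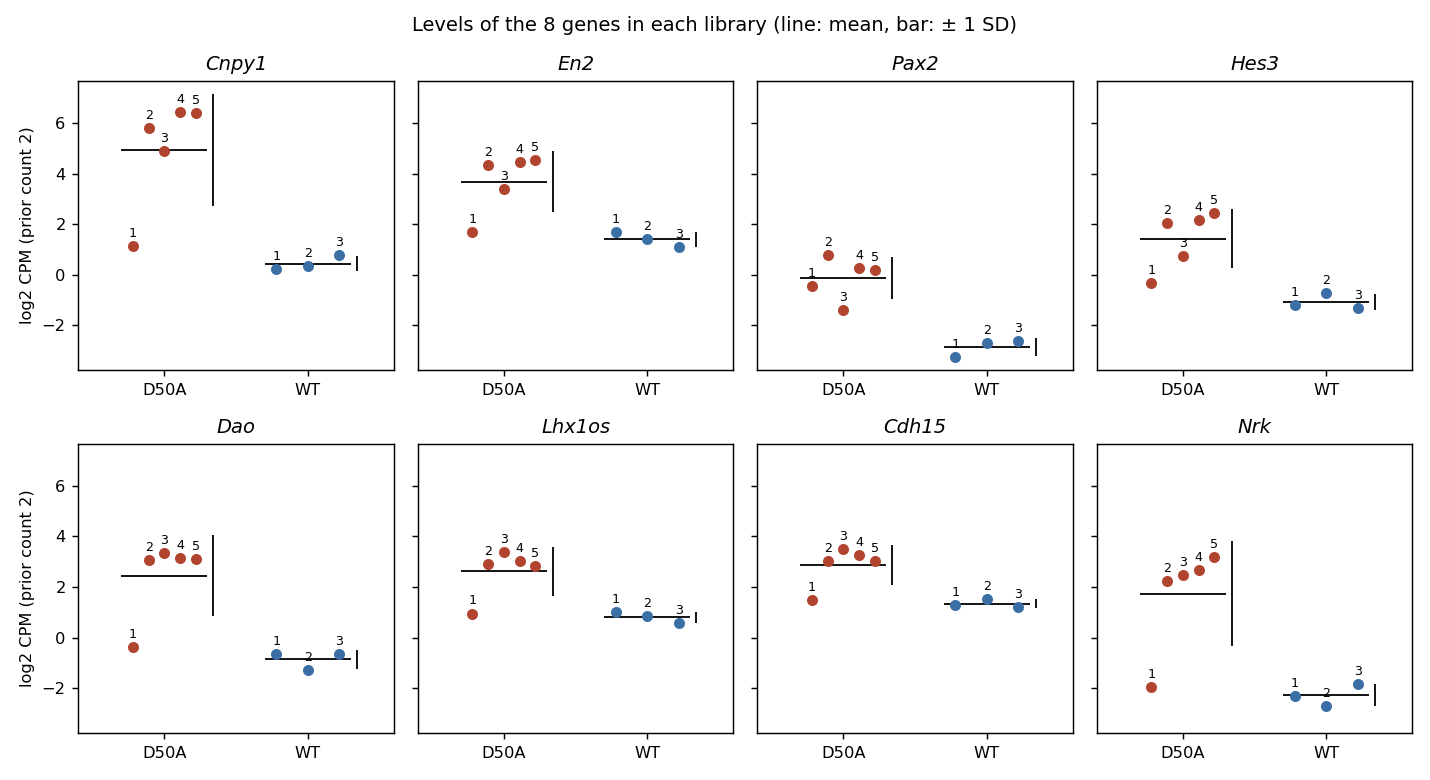
Level of each of the 8 genes as log2 CPM with a prior count of 2 (vertical axis) in the 5 D50A libraries (left) and the 3 WT libraries (right), with library numbers beside the points, the group mean as a line and ± 1 SD as a bar. D50A 1 is the lowest D50A library for 7 genes, in or just above the WT range, but not for Pax2, whose counts there were 16 against 0, 1 and 1 in WT.

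En2 (ENSMUSG00000039095, chromosome 5, 28165694 to 28172166, plus strand) is an engrailed homeodomain factor that patterns the midbrain and cerebellum. It was at 3.15, 20, 10.5, 21.8 and 23.1 CPM in D50A 1 to 5, and at 3.13, 2.58 and 2.02 CPM in WT 1 to 3. D50A 1 was level with WT 1, the highest WT library, and D50A 3 stood between those 2 and the other D50A libraries. The log2 fold change was 2.60 (SE 0.63), 2.88 without D50A 1 and 2.71 without D50A 3.

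Pax2 (ENSMUSG00000004231, chromosome 19, 44756045 to 44837871, plus strand), a paired-domain factor of the boundary that is also used in inhibitory neurons of the cerebellum and hindbrain, had few counts. D50A 1 to 5 held 16, 32, 3, 21 and 21 counts, or 0.623, 1.62, 0.278, 1.11 and 1.04 CPM, against 0, 1 and 1 counts in WT 1 to 3. The groups did not overlap, although D50A 3 rested on 3 counts. Over the pooled libraries the 93 counts of D50A against 2 in WT gave a CPM ratio of 28.0, with an exact 95% interval of 7.53 to 235 that covers counting error only. The fitted log2 fold change of 4.54 (SE 0.82) rests on these 2 WT counts and is loosely known at such a low WT level. It was 4.67 without D50A 1 and 4.74 without D50A 3.

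Hes3 (ENSMUSG00000028946, chromosome 4, 152285972 to 152291662, minus strand) encodes a basic helix-loop-helix repressor of the boundary that is also found in Purkinje cells. Its levels were 0.701, 4.06, 1.57, 4.34 and 5.39 CPM in D50A 1 to 5, against 0.337, 0.506 and 0.297 CPM in WT 1 to 3. All 5 D50A libraries were above WT, D50A 1 by the least, at 18 counts. The log2 fold change was 3.06 (SE 0.73), 3.34 without D50A 1 and 3.21 without D50A 3.

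Dao, Cdh15, Nrk and the noncoding Lhx1os were high in D50A 2 to 5, with D50A 1 in or just above the WT range. Dao (ENSMUSG00000042096, chromosome 5, 114003703 to 114025682, plus strand) encodes D-amino acid oxidase, a peroxisomal enzyme that degrades D-serine and is known from hindbrain and cerebellar glia. It had 0.662, 8.16, 10.1, 8.69 and 8.41 CPM in D50A 1 to 5, against 0.529, 0.304 and 0.535 CPM in WT 1 to 3. D50A 2 to 5 were close to each other here, and D50A 1 was 1.45 times the WT mean. The log2 fold change was 3.96 (SE 0.85), 4.28 without D50A 1 and 3.81 without D50A 3.

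Cdh15 (ENSMUSG00000031962, chromosome 8, 122847966 to 122867397, plus strand) encodes M-cadherin, an adhesion protein of muscle that is also known from cerebellar granule cells. It was at 2.69, 8.01, 11.2, 9.64 and 7.96 CPM in D50A 1 to 5, and at 2.31, 2.78 and 2.20 CPM in WT 1 to 3. D50A 1 lay inside the WT range. The log2 fold change was 1.69 (SE 0.43), the smallest of the 8, 1.93 without D50A 1 and 1.53 without D50A 3.

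Nrk (ENSMUSG00000052854, chromosome X, 138914430 to 139010532, plus strand) encodes a Ste20-type protein kinase known from embryonic muscle and placenta. D50A 1 to 5 held 4, 92, 59, 119 and 182 counts, or 0.156, 4.66, 5.46, 6.3 and 9 CPM, against 2, 1 and 3 counts in WT 1 to 3. D50A 1 was inside the WT range of 0.0506 to 0.178 CPM. The log2 fold change was 5.51 (SE 1.26), 5.85 without D50A 1 and 5.49 without D50A 3. Skeletal muscle genes were low in all libraries, with a summed level over 18 genes between 17.7 and 20.1 CPM in D50A libraries and between 18.4 and 19.8 CPM in WT libraries, and Myog and Myf5 were at or near 0 throughout.

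Lhx1os (ENSMUSG00000087211, chromosome 11, 84525660 to 84535831, plus strand) is a long noncoding RNA that starts beside Lhx1, a LIM homeodomain gene of the Purkinje lineage, on the opposite strand. It had 1.83, 7.30, 10.4, 7.95 and 6.97 CPM in D50A 1 to 5, against 1.88, 1.72 and 1.37 CPM in WT 1 to 3. D50A 1 was inside the WT range and D50A 3 was the highest library by CPM, after scaling of library sizes. The log2 fold change was 2.04 (SE 0.51), 2.31 without D50A 1 and 1.84 without D50A 3. Lhx1 itself was at 2.22, 5.83, 3.15, 8.11 and 9.74 CPM in D50A 1 to 5, against 2.41, 1.62 and 2.32 CPM in WT 1 to 3. D50A 1 was again inside the WT range for Lhx1, but D50A 3, the highest library for Lhx1os, was the lowest of D50A 2 to 5 for Lhx1.

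In the RefSeq annotation of GRCm38.p6 the starts of Lhx1 and Lhx1os have 125 bases between them and point away from each other, so a single stretch of DNA holds the promoters of both. The window of 300 bases around the start of Lhx1os, at chr11:84525410-84525709 on the plus strand, is shown because both genes were followed here; capitals mark the bases between the starts.

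Lhx1os: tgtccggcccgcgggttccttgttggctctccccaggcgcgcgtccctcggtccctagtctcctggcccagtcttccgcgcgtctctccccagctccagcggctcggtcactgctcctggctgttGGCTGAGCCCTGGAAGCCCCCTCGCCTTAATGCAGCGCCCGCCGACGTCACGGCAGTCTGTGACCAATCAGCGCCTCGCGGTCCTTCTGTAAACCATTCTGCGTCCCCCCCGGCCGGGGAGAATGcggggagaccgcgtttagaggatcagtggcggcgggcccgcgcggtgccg

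Cnpy1 has 2 annotated starts, and the windows around them are shown because its level ran from 2.10 to 86.5 CPM within the D50A group and the starts differ in base composition. They lie on the minus strand at chr5:28245739-28246038 for the outer start and chr5:28210119-28210418 for the inner one, in RefSeq's GRCm38.p6, and capitals mark CG dinucleotides.

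Cnpy1 outer start: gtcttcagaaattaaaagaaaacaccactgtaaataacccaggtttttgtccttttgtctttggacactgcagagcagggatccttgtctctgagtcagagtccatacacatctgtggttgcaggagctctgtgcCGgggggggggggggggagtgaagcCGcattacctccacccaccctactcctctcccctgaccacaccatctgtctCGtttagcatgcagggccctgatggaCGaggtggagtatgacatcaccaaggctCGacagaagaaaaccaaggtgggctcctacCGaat
Cnpy1 inner start: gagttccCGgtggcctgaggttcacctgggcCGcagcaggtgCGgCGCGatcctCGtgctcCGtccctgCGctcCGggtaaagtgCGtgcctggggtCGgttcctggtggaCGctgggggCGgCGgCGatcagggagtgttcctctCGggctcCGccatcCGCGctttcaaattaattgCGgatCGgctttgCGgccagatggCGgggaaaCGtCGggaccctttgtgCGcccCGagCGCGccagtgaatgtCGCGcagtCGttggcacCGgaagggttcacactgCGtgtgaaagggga

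The outer window holds 6 CG dinucleotides at a GC content of 53.0%, and the inner one 34 at 66.3%, where the median of 32817 annotated promoter windows of this length is 7 at 52.7%. Counts per gene do not tell which start was used. Promoter windows were found for 6 of the 8 genes, 11 windows in all. The homeodomain core TAATTA, searched on both strands, was in none of these 11 and in 5.30% of all windows. The E-box CACGTG was in 1 window each of Dao and Cdh15 and in 7.15% of all windows. These matches describe letters in the windows and not binding.

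Per kilobase of annotated exons, the mean level in D50A was highest for Lhx1os, at 9.86 CPM per kilobase, followed by Cnpy1 at 8.79, En2 at 4.43, Dao at 2.44, Cdh15 at 2.43, Hes3 at 1.64, Nrk at 0.556 and Pax2 at 0.173. In WT the order was Lhx1os at 2.37 CPM per kilobase, Cdh15 at 0.748, En2 at 0.728, Cnpy1 at 0.218, Hes3 at 0.194, Dao at 0.154, Nrk at 0.0118 and Pax2 at 0.00678. In D50A the range over libraries of every gene overlapped that of its neighbour in this order. In WT only 3 gaps were clear of overlap, those below Lhx1os, below En2 and below Dao. Cnpy1 was above En2 per kilobase in D50A 2 to 5 and below it in D50A 1 and in every WT library.

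The 4 D50A libraries with high levels did not rank the genes alike. D50A 3 was the lowest of D50A 2 to 5 for Cnpy1, En2, Pax2 and Hes3, at 29.8 against 55.4 to 86.5 CPM for Cnpy1, and the highest for Dao, Lhx1os and Cdh15. Nrk in D50A 3, at 5.46 CPM, was between D50A 2 and D50A 4. The scaling factor of library size was 0.7911 in D50A 3 and between 1.012 and 1.051 elsewhere, which raises CPM in D50A 3. By counts over unscaled totals, D50A 3 was not the highest for Dao, Lhx1os or Cdh15. It stayed the lowest of D50A 2 to 5 for Cnpy1, En2, Pax2 and Hes3. D50A 3 is also the library with the raised mitochondrial share, and its part in this order was not tested.

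The single library D50A 1, taken alone, is described next, with values that the choice of genes also used. Its 16 Pax2 counts against 2 in pooled WT gave a CPM ratio of 17.9 with an exact 95% counting interval of 4.2 to 160. For Cnpy1 the ratio of D50A 1 over pooled WT was 1.68, with an interval of 1.15 to 2.42. The other 6 had ratios of 1.09 to 1.83, and the interval of each included 1. These intervals compare libraries and cover counting error only, with no allowance for the spread between mice. Slc6a5, the glycine transporter of inhibitory hindbrain neurons, was also high in D50A 1, at 4.52 CPM against 0.577, 1.32 and 0.653 CPM in WT 1 to 3. Its ratio was 5.29 with an interval of 3.76 to 7.54. Not every gene of the medulla and pons list was raised in D50A 1. Gata3, named after its values were seen, was at 1.6 CPM there, inside the WT range of 1.32 to 1.84 CPM.

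**Figure D2:**
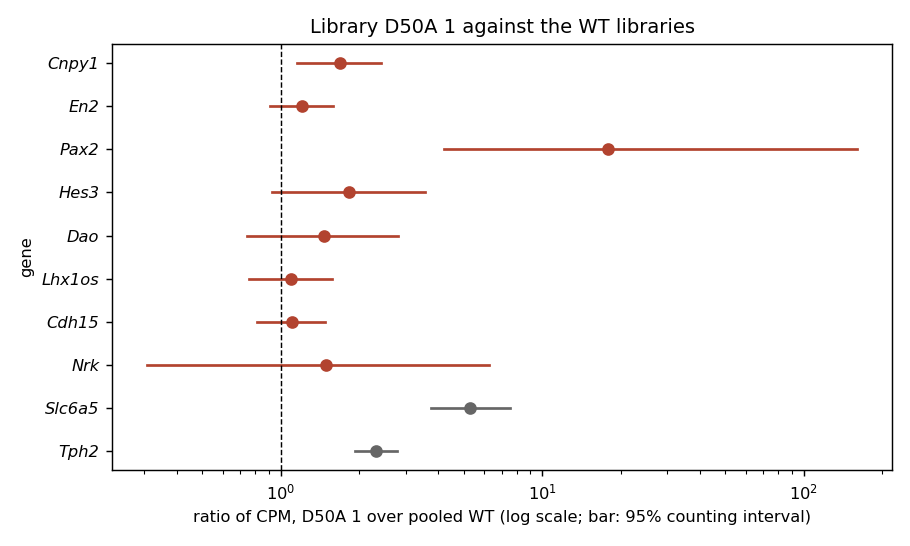
Ratio of CPM in library D50A 1 over the pooled WT libraries (horizontal axis, log scale) for the 8 genes in red and, in grey, for Slc6a5 and Tph2, with exact 95% counting intervals as bars. Pax2 and Slc6a5 lie farthest to the right, at 17.9 and 5.29, while En2, Lhx1os and Cdh15 lie between 1.09 and 1.21. Tph2 lies at 2.32, with 1.06 CPM in WT 1 but 6.48 and 5.46 CPM in WT 2 and 3. Other genes of the medulla and pons list are not drawn, and not all were higher in D50A 1.

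Across the whole table no gene passed the edgeR quasi-likelihood test at an adjusted p under 0.05, so the background was 0% higher and 0% lower of 16810 genes tested, with a smallest adjusted p of 0.837. Before adjustment, 1.64% were higher and 0.863% lower at p under 0.05, and DESeq2 called 0.206% higher and 0.0364% lower of 16475 genes at an adjusted p under 0.05. All D50A libraries lay above all WT libraries for 3.22% of the genes tested and below them for 4.24%. Among the 8 genes edgeR called 0 and DESeq2 called 8, and the groups did not overlap for 5, Cnpy1, En2, Pax2, Hes3 and Dao. These counts for the 8 genes come from the contrast that chose them and carry no weight of their own. Their log2 fold changes ran from 1.69 to 5.51 with a median of 3.51, where the median of all genes tested was -0.01.

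The wider set of patterning genes had a median near that of all genes, with more single genes past the unadjusted threshold than the background. Of 32 such genes 29 were tested, and edgeR called 0 higher and 0 lower, as did DESeq2. At an unadjusted p under 0.05 edgeR had 4 of 29 higher and 0 lower, where 1.64% of all genes were higher, and 3 of 29 lay above WT without overlap, where 3.22% of all genes did. Their median log2 fold change was 0.06, with 16 of 29 above 0. En1, the engrailed paralog of En2, was at 1.32, 1.67, 0.278, 1.8 and 1.58 CPM in D50A 1 to 5, against 1.11, 1.21 and 1.25 CPM in WT 1 to 3, a log2 fold change of 0.20 (SE 0.43). Its groups overlapped, with D50A 3 the lowest of all 8 libraries.

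The boundary ligands Fgf8 and Wnt1 and the paired-box genes Pax5 and Pax8 had low levels. Fgf8, the main organizer signal, was below the filter, with 0 CPM in D50A 1 to 3 and 0.159 and 0.0494 CPM in D50A 4 and 5, against 0, 0 and 0.119 CPM in WT. Wnt1 was at 0.89 ± 0.47 CPM in D50A (SD, n = 5) and 1.67 ± 0.386 CPM in WT (SD, n = 3), and its log2 fold change was -0.88 (SE 0.41). Pax5 and Pax8, the closest paralogs of Pax2, were also below the filter, at 0.327 ± 0.151 and 0.265 ± 0.0239 CPM in D50A (SD, n = 5), against 0.209 ± 0.0840 and 0.195 ± 0.0471 CPM in WT (SD, n = 3).

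Receptors and feedback genes of FGF signalling had no value at an unadjusted p under 0.05. Log2 fold changes were -0.07 for Fgfr1, 0.01 for Fgfr2 and -0.24 for Fgfr3, and 0.08, -0.06 and -0.18 for the inhibitors Spry1, Spry2 and Spry4. Il17rd, another feedback inhibitor, had -0.53 (SE 0.40), with a level of 1.85 CPM in D50A 3 and between 6.77 and 9.31 CPM in the other D50A libraries, against 9.24 to 10.4 CPM in WT. The FGF targets Etv4, Etv5 and Dusp6 had 0.06, -0.19 and -0.05, and Gbx2 and Otx2, which set the sides of the boundary, had 0.17 and 0.33. The repressors Hes1 and Hes5, relatives of Hes3, had -0.17 and -0.16. SEs of the other values ran up to 0.36. D50A 3 was far below WT for several of them, with 24.1 CPM of Fgfr1 against 69.9 to 74.9 CPM in WT, 29.3 CPM of Etv5 against 72.6 to 85.6 CPM in WT, and 3.42 CPM of Spry4 against 8.61 to 10.8 CPM in WT.

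Lhx1, Lhx5, Irx3 and Meis1 were the 4 with an unadjusted edgeR p under 0.05, and each had an adjusted p of 0.84. Lhx5, a LIM homeodomain factor of the Purkinje lineage, was at 2.41 ± 0.823 CPM in D50A (SD, n = 5) and 1.20 ± 0.131 CPM in WT (SD, n = 3), a log2 fold change of 1.01 (SE 0.32). Meis1, a homeodomain cofactor, was at 10.7 ± 2.57 CPM in D50A and 6.97 ± 0.0947 CPM in WT, and Irx3, an Iroquois factor, at 2.90 ± 0.333 CPM in D50A and 1.74 ± 0.300 CPM in WT. Without D50A 1 and D50A 3 together, edgeR called these 4 higher and no other patterning gene, with log2 fold changes of 1.92 for Lhx1, 1.32 for Lhx5, 0.83 for Meis1 and 0.78 for Irx3 and adjusted p-values of 1.9e-05, 0.0012, 0.00057 and 0.033 in that order. Over the whole table the same setting called 558 genes higher and 507 lower. With all 8 libraries, 16810 genes were tested, 29 of them patterning genes. Calls were therefore not confined to patterning genes, and whether they were more frequent among these was not tested. That comparison leaves 3 D50A libraries, all with high cerebellar transcripts, against WT libraries where they are low.

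**Figure D3:**
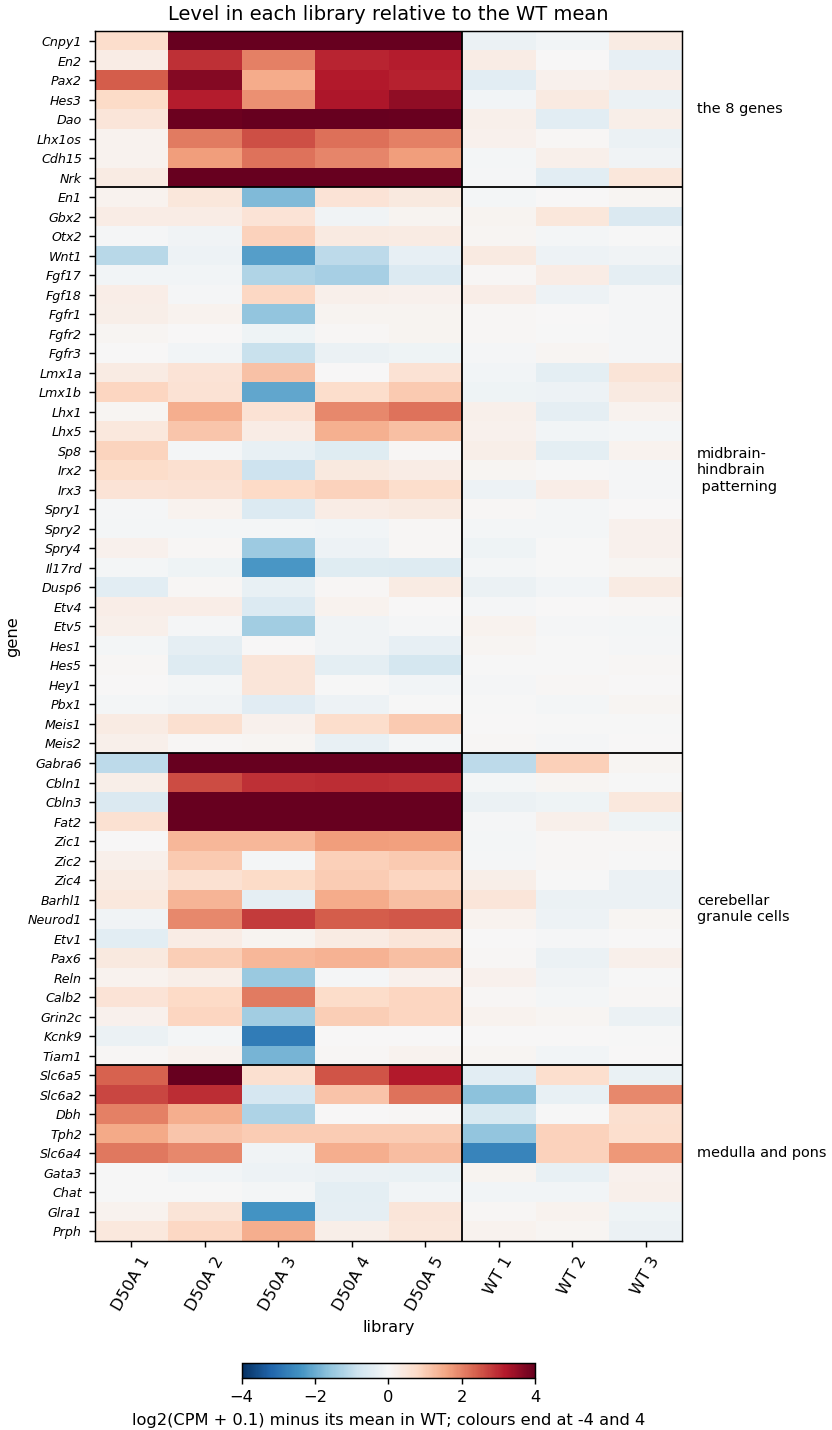
Level of each tested gene (rows) in each library (columns) as log2(CPM + 0.1) minus its mean over the 3 WT libraries, with red higher and blue lower, for the 8 genes, the patterning list, the granule cell list and the medulla and pons list. In the granule cell list Gabra6, Cbln3 and Fat2, named for their values, are dark red in D50A 2 to 5, while Kcnk9, Tiam1, Reln and Etv1 are not. Most patterning genes stay pale, and D50A 3 is the bluest column among them.

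Relatives of Cnpy1 and Dao were also measured. The canopy genes Cnpy3 and Cnpy4 had log2 fold changes of -0.01 and 0.11, and Cnpy2 had 1.0 (SE 0.62), with a level of 164 CPM in D50A 3 and between 31.4 and 38.4 CPM in the other D50A libraries, against 28.1 to 32.4 CPM in WT, and no adjusted p from DESeq2. Among 10 tested genes of D-amino acid and glycine metabolism edgeR and DESeq2 called 0, as they did for nearly all genes, the median log2 fold change was -0.06, and 1 had an unadjusted edgeR p under 0.05. That gene was Ddo, the oxidase of D-aspartate, at 10.8 ± 0.678 CPM in D50A (SD, n = 5) and 7.85 ± 1.08 CPM in WT (SD, n = 3). Srr, which makes the D-serine that Dao degrades, was at 49.1 ± 4.54 CPM in D50A and 47.2 ± 1.09 CPM in WT.

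Summed levels of cerebellar marker lists in D50A 2 to 5 exceeded those of D50A 1 and of every WT library. The summed level of 16 granule cell genes was 609, 1289, 1111, 1532 and 1546 CPM in D50A 1 to 5, against 598, 554 and 567 CPM in WT 1 to 3. D50A 1 was next to WT, and D50A 3 was the lowest of the other 4, as for En2 and Cnpy1. The list had a median log2 fold change of 1.03, 0 calls by edgeR, 10 higher and 0 lower at an unadjusted p under 0.05, and 6 higher by DESeq2. Cbln1, which organizes the synapses of granule cell axons, averaged 147 ± 68.2 CPM in D50A (SD, n = 5) and 24.3 ± 1.34 CPM in WT (SD, n = 3), and Zic1, a zinc finger factor of granule cell precursors, 142 ± 50.8 CPM in D50A and 57.5 ± 2.73 CPM in WT. Tiam1, the third of the most abundant genes of the list, had a log2 fold change of -0.15. For 18 Purkinje cell genes the summed level was 2103, 2710, 3524, 2818 and 2962 CPM in D50A 1 to 5, against 2248, 2205 and 2104 CPM in WT 1 to 3. D50A 3 had the highest sum, unlike for Cnpy1, En2, Pax2 and Hes3, but only after the scaling that raises its CPM. The mean log2 CPM of these 18 genes was 4.41, 5.66, 5.69, 5.81 and 5.86 in D50A 1 to 5, against 4.5 to 4.53 in WT. Their median log2 fold change was 0.60, with 0 calls by edgeR, 7 higher at an unadjusted p under 0.05 and 5 higher by DESeq2. The 13 tested genes of Bergmann glia and cerebellar interneurons had a median of 0.83, with 0 calls by edgeR, 4 higher at an unadjusted p under 0.05 and 1 higher by DESeq2, and this median was 0.31 without D50A 3. Itpr1 and Aldoc, abundant genes of the Purkinje list that are also expressed outside the cerebellum, had log2 fold changes of -0.10 and 0.41. Over all genes tested, 1.64% were higher and 0.863% lower at an unadjusted edgeR p under 0.05, and DESeq2 called 0.206% higher. All D50A libraries lay above all WT libraries for 5 of 16 granule cell genes and 2 of 18 Purkinje cell genes. Over all genes tested that share was 3.22%. The part of these lists in the levels of the 8 genes was not tested. No WT library had a summed level of the granule cell or Purkinje cell list as high as D50A 2 to 5. D50A 1 was the only D50A library near the WT sums. In D50A 2 to 5 that level and genotype therefore cannot be told apart.

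Genes of other regions and tissues are given for comparison, in a table where edgeR called 0% of all genes. At an unadjusted edgeR p under 0.05 it had 1.64% higher and 0.863% lower, and DESeq2 called 0.206% higher. The 10 tested midbrain genes had a median log2 fold change of -0.05 and the 22 forebrain genes -0.28, with 0 calls by edgeR or DESeq2 and 0 at an unadjusted p under 0.05 in both. The dopamine genes Th and Slc6a3 had -0.07 and -0.01. Choroid plexus and meningeal genes had a median of 0.14 and skeletal muscle genes 0.07, with 0 calls by edgeR or DESeq2 and 0 and 1 genes at an unadjusted p under 0.05. In the medulla and pons list, 9 of 24 genes in the table were tested, with a median of 0.74. This median was 0.51 when either D50A 1 or WT 1 was left out, 1.21 without WT 3 and 1.56 with no filter on low counts. The list had 0 calls by edgeR, 2 higher at an unadjusted p under 0.05 and 1, Slc6a5, higher by DESeq2. Its summed level was 39.8, 51.6, 22.8, 28.3 and 34.3 CPM in D50A 1 to 5, against 13.8, 22.9 and 25.2 CPM in WT 1 to 3, so that D50A 1 and 2 were the highest libraries and WT 1 the lowest.

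**Figure D4:**
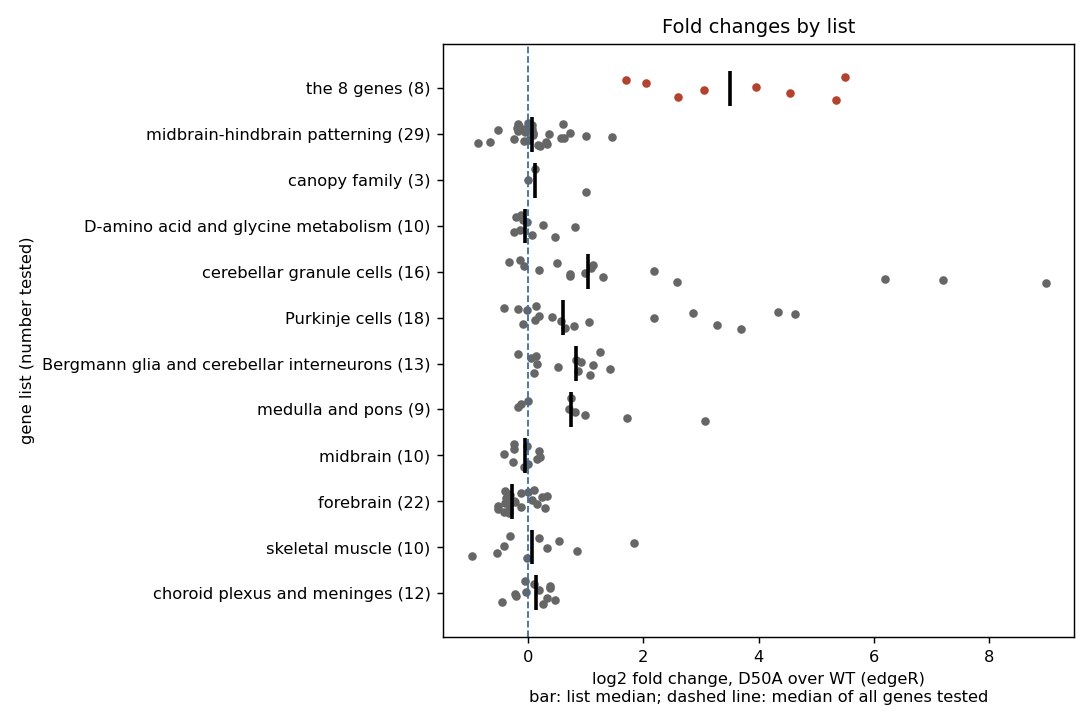
Log2 fold change of D50A over WT (horizontal axis) for each tested gene, 1 row per list, with the list median as a bar and the median of all genes tested, -0.01, as a dashed line. The 8 genes, in red, were picked for being higher in D50A and run from 1.69 to 5.51; the patterning list centres on 0.06 and the granule cell list on 1.03.

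Across the 8 libraries the members had a median Pearson r of log2 CPM of 0.95 over 28 pairs and a range of 0.71 to 0.99. This likeness follows from the choice of genes that were high in the same D50A libraries, and nothing is read from it. The lowest values all involved Pax2, which had r = 0.71 with Lhx1os and 0.72 with Cdh15 but 0.90 with Hes3. With the mean log2 CPM of the granule cell list, r was 0.93 to 0.99 for 7 members and 0.82 for Pax2, and with that of the Purkinje cell list 0.93 to 0.99 and 0.74. With the patterning list it was -0.18 to 0.44 over all 8. With the medulla and pons list it was 0.78 for Pax2 and 0.18 to 0.51 for the others. These values describe 8 libraries, and genes read from 1 library share its depth, RNA quality and dissection.

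The genes most like each member over the 8 libraries, taken from all other genes tested, had r of 0.953 to 0.995. The 3 nearest genes of each member came to 17 different genes. Of these, 3 were in the granule cell list, 1 in the medulla and pons list and 0 in the Purkinje cell and patterning lists. Those lists hold 16, 9, 18 and 29 of the 16810 genes tested, in that order. This likeness also follows from the choice of members that were high in the same D50A libraries. Fat2, a giant protocadherin of granule cells, was among the nearest of Cnpy1 (r = 0.993), En2 (r = 0.994) and Hes3 (r = 0.985), with 1.48, 103, 24.5, 110 and 115 CPM in D50A 1 to 5 against 0.914, 1.11 and 0.832 CPM in WT 1 to 3. Like those 3 members, it was lowest in D50A 3 among D50A 2 to 5. Cbln1, a synaptic organizer secreted by granule cells, was near Dao (r = 0.991) and Nrk (r = 0.991), with 184 CPM in D50A 3. Lhx1os and Cdh15 shared Mdfi (r = 0.995 with both) and Sycp1 (r = 0.991 with both) as nearest genes.

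Pax2 had other neighbours in pattern. Its nearest were Stap2 (r = 0.955), Slc6a5 (r = 0.953) and Usb1 (r = 0.953), none of them in the cerebellar lists. Slc6a5 was at 4.52, 17.0, 1.30, 5.03 and 7.91 CPM in D50A 1 to 5. As for Pax2, D50A 2 was its highest library and D50A 3 the lowest of the D50A group. Stap2, an adaptor protein gene, was at 3.27, 6.39, 3.98, 6.78 and 6.28 CPM in D50A 1 to 5, against 1.73, 2.18 and 1.96 CPM in WT 1 to 3.

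Of the chromosomal neighbours within 100000 bases, only members and Lhx1 had an unadjusted edgeR p under 0.05. En2 and Cnpy1 are themselves neighbours on chromosome 5, with 28652 bases between their ends, and point towards each other. The next tested genes on either side were Insig1, with a log2 fold change of 0.10, and Rbm33, with -0.30. Leaving out the members, 22 neighbours were tested, with a median log2 fold change of -0.13, 0 calls by edgeR or DESeq2 and 1 at an unadjusted p under 0.05, Lhx1. Svop, which ends 1227 bases from Dao, had -0.02, and Gpr153, which ends 634 bases from Hes3, had -0.37 (SE 0.38). No member shared annotated exon bases with another gene. The counting's strand setting was not found in the labels.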

How the data were processed

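Poly(A)-selected RNA of 8 whole-brain samples was sequenced, and the deposited table holds unnormalized read counts for each gene. The submitters' processing notes list STAR 2.5, HTSeq 0.6.1, DESeq2 2, CASAVA 1.8 and the build mm10, without roles; neither the annotation nor the strand option is given. Groups follow the genotype label. Counts were fitted with edgeR 4.0.16 (R 4.3.3) after filterByExpr and TMM scaling, by its quasi-likelihood test with Benjamini-Hochberg adjustment over 16810 genes and a threshold of 0.05. CPM uses TMM-scaled sizes; a prior count of 2 enters log2 CPM; each SE is the log2 fold change over the square root of F. DESeq2 1.42.0, run on the same genes, gave no adjusted p for 335. The labels name single animals but not their litters, so p-values measure the spread between these libraries. The fit was tested on simulated data. Exons and positions came from GENCODE M21 (mm10), where 25484 IDs matched. Named genes were the members, the patterning, canopy and D-amino acid lists, the 3 most abundant tested genes of other lists (1 is not reported here), and the 3 genes nearest each member by Pearson r; Gabra6, Myog, Myf5, Cbln3, Kcnk9, Reln, Etv1, single neighbours and genes named for their place in a list were added after their values were seen. Members and lists were chosen with earlier results of these data known. Alternatives were DESeq2, other scaling, other filters, libraries left out, a prior count of 0.5 and, added after seeing the data, a robust fit.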

Additional observations from a re-analysis of the deposited data

Results flagged for a closer look

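The 19 sets of D50A values examined were the CPM of the 8 genes and the mean log2 CPM of 11 lists. In 6 of them a library was set far apart from the other 4. Chance flags about 5% of independent sets, but these sets share the same libraries, and the 8 genes were chosen by these counts. The number flagged is therefore no test. D50A 1 stood apart for Dao, at 0.662 CPM, and for the Purkinje cell list, at a mean log2 CPM of 4.41. D50A 3 stood apart for the patterning list at 2.59, the canopy genes at 5.23, the D-amino acid and glycine list at 4.22 and the midbrain list at 0.50. By this mean it was the lowest D50A library for all but the canopy genes, where it was the highest. By summed CPM it was the highest for the D-amino acid and glycine list, at 520 CPM against 339 to 368 CPM in the other D50A libraries.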

How the results depend on the processing

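The log2 fold changes of the 8 genes stayed above 0 in all 120 values from the alternatives run. The members were picked on this contrast, so that direction was favoured. All 120 moved by less than 1 SD between replicates. That SD comes from the same libraries, so leaving 1 of them out can hardly move a value by as much, and this is no test. Without single libraries the log2 fold changes ran from 5.07 to 5.66 for Cnpy1, 2.42 to 2.88 for En2, 3.97 to 4.95 for Pax2 and 5.18 to 5.99 for Nrk. The count of genes called over the whole table was 0 higher and 0 lower, and DESeq2 gave 34 and 6. Leaving out 1 library gave 0 to 26 higher, with 26 without D50A 1, and 0 lower. Leaving out D50A 1 and D50A 3 together gave 558 higher and 507 lower, with 4 patterning genes called against 0 otherwise. The cause was not tested. The 3 remaining D50A libraries all hold high cerebellar transcripts, so these counts compare libraries that differ in them. Other scaling, other filters and the robust fit called 0. The prior count of 0.5 left the median r between members at 0.95. Pax2, Nrk and Hes3 rest on 2, 6 and 22 WT counts in all, which limits how closely their ratios are known. No paired analysis was possible because the labels give no number, litter or batch that groups share.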

Other observations

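Pax3, a paired-box gene listed here among muscle genes and also known from the neural tube and neural crest, was at 0.195, 0.304, 1.02, 1.38 and 1.29 CPM in D50A 1 to 5, against 0.289, 0.304 and 0.0594 CPM in WT 1 to 3. D50A 1 and 2 were at the WT level and D50A 3 to 5 above it, so Pax3 was low in D50A 2, where all 8 genes were high. It was named after its values were seen. Sycp1, a protein of meiotic chromosome pairing, was listed at 0 in D50A 1 and in all 3 WT libraries, and at 2.08, 4.53, 2.86 and 3.02 CPM in D50A 2 to 5.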
